A study of Mus musculus with 2 samples.

Results

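Prox1-positive valve endothelial cells are the endothelial cells of the mouse mitral valve that carry transcript of Prox1, the homeobox transcription factor best known as the switch to lymphatic endothelial identity. They were taken from 2 droplet libraries of dissociated mitral valves, anterior and posterior leaflets together. A barcode was kept with at least 1000 unique molecular identifiers (UMIs, each a counted transcript), at least 500 genes and at most 20% mitochondrial UMIs. It was called endothelial when Pecam1, Cdh5 and Emcn summed to at least 5 UMIs, the matrix genes Dcn, Col1a1, Col1a2 and Col3a1 made up under 1% of its UMIs, and the macrophage genes C1qa, C1qb and C1qc and the lymphatic vessel genes Ccl21a, Mmrn1 and Reln each summed to fewer than 5 UMIs. Endothelial cells with at least 2 Prox1 UMIs were the Prox1-positive cells. There were 212 of them among 562 endothelial cells and 18630 barcodes, and 242 endothelial cells without a Prox1 UMI, called Prox1-zero cells here, were the cells they were set against. The 108 endothelial cells with 1 Prox1 UMI stood in neither class.

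The first library came from 3 pooled Fbn1 C1039G/+ mice and the second from 5 pooled WT mice with the genotype Fbn1 +/+, all C57BL/6J and 1 month old. Fbn1 encodes fibrillin-1, the backbone of extracellular microfibrils, and the C1039G allele replaces a cysteine of it and models Marfan syndrome. The allele is carried by every cell of the mouse, not by endothelium alone. With 3 mice of both sexes in the Fbn1 C1039G/+ pool, 1 sex came from a single mouse. Each genotype had 1 library, so differences between the libraries have no replicate check, and their intervals cover counting error and not variation between mice, dissections or captures. Intervals of levels and of their ratios rest on UMIs summed over cells, so they leave out variation between cells as well.

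Valve endothelium covers both faces of a leaflet and meets flowing blood, and it supplies signals to the interstitial cells beneath. In lymphatic vessels and veins, Prox1 and the forkhead factor Foxc2 act together in the endothelial cells that build intraluminal valves, along with the gap junction protein connexin 37 (Gja4), integrin alpha 9 (Itga9) and the ephrin ligand Efnb2. Part of the endothelium of cardiac valves also expresses Prox1 although it is not lymphatic.

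The Fbn1 C1039G/+ library held 103663375 UMIs in 9744 barcodes and the WT library 100969482 UMIs in 9509 barcodes. Of these, 9440 Fbn1 C1039G/+ and 9190 WT barcodes passed the filters. No barcode of a Prox1-positive cell occurred in the other library, and 17 barcodes were shared in all. The WT library also held 5 lymphatic-type endothelial barcodes with 1 to 32 Prox1 UMIs, which the rule removed, and the Fbn1 C1039G/+ library held 0.

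The cells were chosen by their Prox1 UMIs and by the endothelial genes of the rule, so the values of these genes describe them and test nothing. The 144 Fbn1 C1039G/+ Prox1-positive cells held 1519 Prox1 UMIs, or 524 CPM (the gene's UMIs over all UMIs of the class, in the usual CPM unit), and the 68 WT cells held 595, or 446 CPM. The median cell had 5 Prox1 UMIs in the Fbn1 C1039G/+ and 4 in the WT library, and the highest had 123 and 73 UMIs in the Fbn1 C1039G/+ and WT libraries. Just inside the threshold lay 34 Fbn1 C1039G/+ and 26 WT cells with exactly 2 Prox1 UMIs, and just outside it 55 Fbn1 C1039G/+ and 53 WT cells with 1. These few cells carried most of the Prox1 transcript of the valve, 67.7% of all Prox1 UMIs in the Fbn1 C1039G/+ and 53.5% in the WT library. A Prox1 UMI was present in 1.71% of Fbn1 C1039G/+ and 2.66% of WT interstitial cells and in 0.703% of Fbn1 C1039G/+ and 1.53% of WT macrophages, which is the background outside the endothelium.

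The Prox1-positive cells were deeper than the Prox1-zero cells. Their median was 15629.5 UMIs in the Fbn1 C1039G/+ and 16355.5 in the WT library, against 7508.5 and 9214 UMIs for the Fbn1 C1039G/+ and WT Prox1-zero cells. Median mitochondrial content was close, at 4.59% in the Fbn1 C1039G/+ and 4.50% in the WT Prox1-positive cells, against 4.51% and 4.39% in the Fbn1 C1039G/+ and WT Prox1-zero cells. Values are therefore given as CPM, and some shares of cells also after each cell was thinned to 5000 UMIs. Shares given without mention of thinning are unthinned, and the classes differ in depth there. The thinning kept 140 of the 144 Fbn1 C1039G/+ and 65 of the 68 WT Prox1-positive cells, and 95 of the 118 Fbn1 C1039G/+ and 104 of the 124 WT Prox1-zero cells.

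Of the markers that came with the name, Foxc2 and Cldn11 went with Prox1 and Nts did not. Foxc2 (ENSMUSG00000046714, chr8:121116171-121118895 in GRCm38) was seen in 76.4% of Fbn1 C1039G/+ and 63.2% of WT Prox1-positive cells, against 25.4% and 18.5% of the Fbn1 C1039G/+ and WT Prox1-zero cells. After thinning these shares were 52.1% and 49.2% in the Fbn1 C1039G/+ and WT Prox1-positive cells, against 15.8% and 8.65% in the Fbn1 C1039G/+ and WT Prox1-zero cells. A Foxc2 UMI was present in 12.8% of Fbn1 C1039G/+ and 10.9% of WT interstitial cells unthinned, at median depths of 10116 and 10035 UMIs, and in 0 of 854 Fbn1 C1039G/+ macrophages (exact upper limit 0.431%) and 0.764% of WT macrophages, at median depths of 7505 and 8315 UMIs. Cldn11 (ENSMUSG00000037625), a tight junction claudin, was seen in 47.9% of Fbn1 C1039G/+ and 44.1% of WT Prox1-positive cells, against 22.0% and 24.2% of the Fbn1 C1039G/+ and WT Prox1-zero cells and 1.47% and 1.07% of the Fbn1 C1039G/+ and WT interstitial cells. After thinning, Cldn11 was seen in 30.7% of Fbn1 C1039G/+ and 27.7% of WT Prox1-positive cells. The thinned Prox1-zero shares were 12.6% in the Fbn1 C1039G/+ and 15.4% in the WT library, where the exact intervals of the classes overlapped. Nts, the precursor of the peptide neurotensin, was seen in 36.1% of Fbn1 C1039G/+ and 32.4% of WT Prox1-positive cells, against 40.7% and 51.6% of the Fbn1 C1039G/+ and WT Prox1-zero cells. Nts was thus not a mark of the Prox1-positive cells in either library.

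Nts was concentrated in few cells. It reached at least 10 UMIs in 32 of the 144 Fbn1 C1039G/+ and 12 of the 68 WT Prox1-positive cells, with 683 UMIs in the highest Fbn1 C1039G/+ and 607 in the highest WT cell. The 5 cells with most Nts held 48.3% of the Nts UMIs of the Fbn1 C1039G/+ and 83.8% of those of the WT Prox1-positive cells. Within the Prox1-positive cells, Nts as a share of a cell's UMIs ranked with Cldn11 and not with Prox1. Cldn11 and Nts had a Spearman correlation of 0.49 over the 144 Fbn1 C1039G/+ and 0.41 over the 68 WT cells, while Prox1 and Nts had -0.16 and -0.11 in the Fbn1 C1039G/+ and WT cells. Prox1 and Foxc2 had 0.51 in the Fbn1 C1039G/+ and 0.46 in the WT cells, and Prox1 counts rose with depth at 0.43 and 0.45 in the Fbn1 C1039G/+ and WT cells. These are correlations across cells that share a library, differ in depth and were chosen by Prox1, and they are given as descriptions. As a sum, Nts was highest in the endothelial cells with 6 or more Prox1 UMIs. It stood there at 1853 CPM in the Fbn1 C1039G/+ and 1126 CPM in the WT library. A UMI of Foxc2 and of Cldn11 occurred together in 61 Fbn1 C1039G/+ and 22 WT cells, and 26 Fbn1 C1039G/+ and 17 WT Prox1-positive cells had neither.

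The rule genes were those of endothelium, and their levels differed in direction. Pecam1 (the adhesion molecule CD31) stood at 790.4 CPM in the Fbn1 C1039G/+ and 833 CPM in the WT Prox1-positive cells, against 1282 and 1305 CPM in the Fbn1 C1039G/+ and WT Prox1-zero cells. Cdh5 (VE-cadherin) stood at 494 CPM in the Fbn1 C1039G/+ and 494 CPM in the WT Prox1-positive cells, against 369 and 311 CPM in the Fbn1 C1039G/+ and WT Prox1-zero cells. Pecam1 was lower and Cdh5 higher in the Prox1-positive cells of both libraries, while Emcn (endomucin) stood at 440.2 CPM in the Fbn1 C1039G/+ and 570.1 CPM in the WT Prox1-positive cells, against 476 and 344 CPM in the Fbn1 C1039G/+ and WT Prox1-zero cells, lower in the first library and higher in the second. These values describe the cells the rule chose and are no test.

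Markers of lymphatic vessel endothelium were near absent. Ccl21a and Reln were at 0 in the Prox1-positive cells of both libraries and Mmrn1 was at 0 in those of the WT library, and these are genes that the rule held low. Lyve1, which the rule did not use, had a UMI in 2.08% of Fbn1 C1039G/+ and 5.88% of WT Prox1-positive cells, against 5.08% and 5.65% of the Fbn1 C1039G/+ and WT Prox1-zero cells. Flt4, the receptor for VEGF-C, was the exception, at 84.8 CPM in the Fbn1 C1039G/+ and 85.4 CPM in the WT Prox1-positive cells, against 66.0 and 60.6 CPM in the Fbn1 C1039G/+ and WT Prox1-zero cells, and it did not pass the test between the classes (edgeR adjusted p = 0.176).

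The summed markers of valve interstitial cells were higher in the Prox1-positive class, but the 6 genes did not move together. All 6 of Dcn, Col1a1, Col1a2, Col3a1, Lum and Postn were detected, and they summed to 6194 CPM in the Fbn1 C1039G/+ and 6019 CPM in the WT Prox1-positive cells, against 4034 and 3078 CPM in the Fbn1 C1039G/+ and WT Prox1-zero cells. Interstitial cells held 39338 CPM in the Fbn1 C1039G/+ and 34980 CPM in the WT library. Per cell, the middle 90% of the Prox1-positive cells ran from 8.93 to 158 of these UMIs per 10000 in the Fbn1 C1039G/+ and from 7.36 to 113 in the WT library, against 4.04 to 111 and 2.25 to 105 in the Fbn1 C1039G/+ and WT Prox1-zero cells. The higher sum was carried by Postn and Dcn. Col1a1, Col3a1 and Lum were lower in the Prox1-positive cells of both libraries, for example Col3a1 with 323 CPM in the Fbn1 C1039G/+ and 239.7 CPM in the WT Prox1-positive cells, against 469 and 251 CPM in the Fbn1 C1039G/+ and WT Prox1-zero cells. Col1a2 was at 113 CPM in the Fbn1 C1039G/+ and 53.9 CPM in the WT Prox1-positive cells, against 103 and 75.7 CPM in the Fbn1 C1039G/+ and WT Prox1-zero cells. None of the 6 was at 0 in either class. How much of the class differences below came with this RNA was not tested gene by gene, so the level in interstitial cells is given beside matrix genes, and each count of genes was also taken with these 4 rule genes under 0.3% of UMIs. Mural markers summed to 42.1 CPM in the Fbn1 C1039G/+ and 18.7 CPM in the WT Prox1-positive cells, with Myh11 at 0 in both.

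The first comparison asked what share of valve endothelium was Prox1-positive in each library. It was 45.4% of the 317 Fbn1 C1039G/+ endothelial cells (exact 95% Clopper-Pearson interval 39.9 to 51.1) and 27.8% of the 245 WT endothelial cells (22.2 to 33.8). The difference was 17.7 percentage points, with a Newcombe interval of 9.66 to 25.3 points. Endothelial cells as a whole made up 3.36% of Fbn1 C1039G/+ and 2.67% of WT barcodes, and Prox1-positive cells 1.53% (1.29 to 1.79) of Fbn1 C1039G/+ and 0.740% (0.575 to 0.937) of WT barcodes. With every cell thinned to 5000 UMIs and the rule applied again, the shares were 29.0% in the Fbn1 C1039G/+ and 12.9% in the WT library, a difference of 16.1 points. Among cells assigned to 1 sex by Xist and Y-linked UMIs, the share was 38.3% in Fbn1 C1039G/+ and 28.1% in WT female cells, a difference of 10.1 points with an interval of -0.590 to 20.2. In male cells it was 58% in the Fbn1 C1039G/+ and 29.0% in the WT library, a difference of 29.0 points (15.0 to 41.3). The difference of the pooled shares was thus larger than counting error, and in female cells alone it was not. With 1 library per genotype and 1 sex of the Fbn1 C1039G/+ pool from a single mouse, genotype, single mouse, digestion and capture cannot be told apart here.

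**Figure D1:**
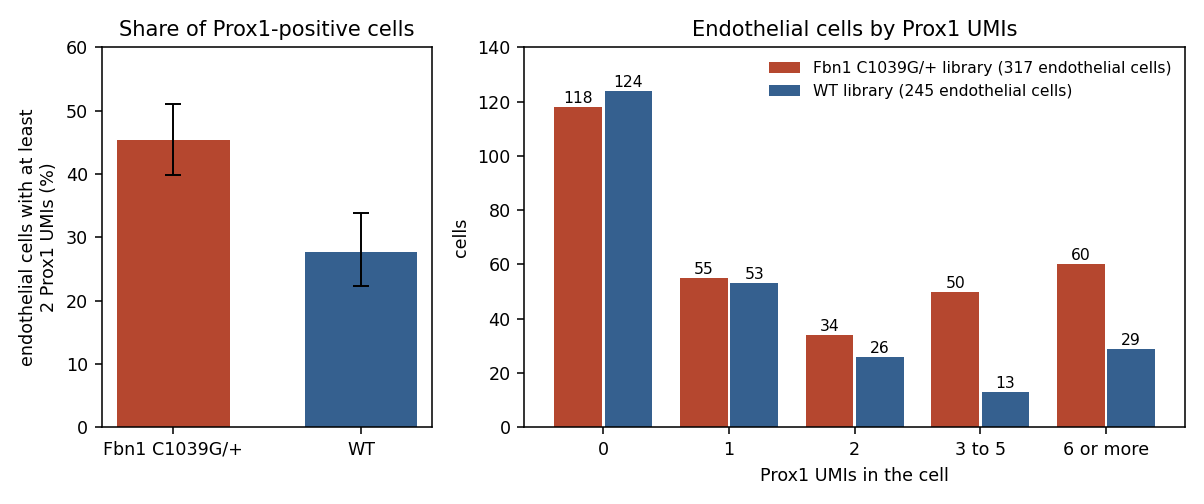
Share of endothelial cells that are Prox1-positive (bars, percent, with exact 95% intervals) and number of endothelial cells by their Prox1 UMIs, in the Fbn1 C1039G/+ and WT libraries. The share is 45.4% in the Fbn1 C1039G/+ and 27.8% in the WT library, and cells with 6 or more Prox1 UMIs number 60 in the Fbn1 C1039G/+ and 29 in the WT library.

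Endothelial cells were then ordered by their Prox1 UMIs to see which genes followed Prox1 step by step and which set only its highest cells apart. Foxc2 followed it throughout. Across 0, 1, 2, 3 to 5 and 6 or more Prox1 UMIs, Foxc2 stood at 46.4, 56.4, 70.4, 155 and 301 CPM in the Fbn1 C1039G/+ and at 18.6, 41.1, 55.9, 107 and 275 CPM in the WT library. Cldn11 did not follow it by steps, with 42.4, 37.6, 45.1, 48.2 and 258 CPM in the Fbn1 C1039G/+ and 33.7, 51.9, 40.6, 47.7 and 181 CPM in the WT library. The high Cldn11 level of the class was thus held by the cells with 6 or more Prox1 UMIs in both libraries.

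Gja4, the connexin 37 gene, stood at 74.7, 73.7, 157, 158 and 345 CPM over the same bins in the Fbn1 C1039G/+ and at 42.0, 82.1, 142, 268 and 358 CPM in the WT library. Itga9 stood at 187, 221, 239.9, 272 and 418 CPM in the Fbn1 C1039G/+ and at 235, 265, 262, 334 and 427 CPM in the WT library. Nts was lowest in the middle bins, with 1109, 1126, 550.2, 830.3 and 1853 CPM in the Fbn1 C1039G/+ and 1068, 679, 434, 381 and 1126 CPM in the WT library. Cells just inside and just outside the threshold were close for Foxc2, whose counting intervals overlapped between 1 and 2 Prox1 UMIs in each library, while Gja4 had intervals that did not overlap there. Median depth moved with the bins too, from 7508.5 to 23908.5 UMIs in the Fbn1 C1039G/+ and from 9214 to 24638 UMIs in the WT library, so the bins differ in depth as well as in Prox1.

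**Figure D2:**
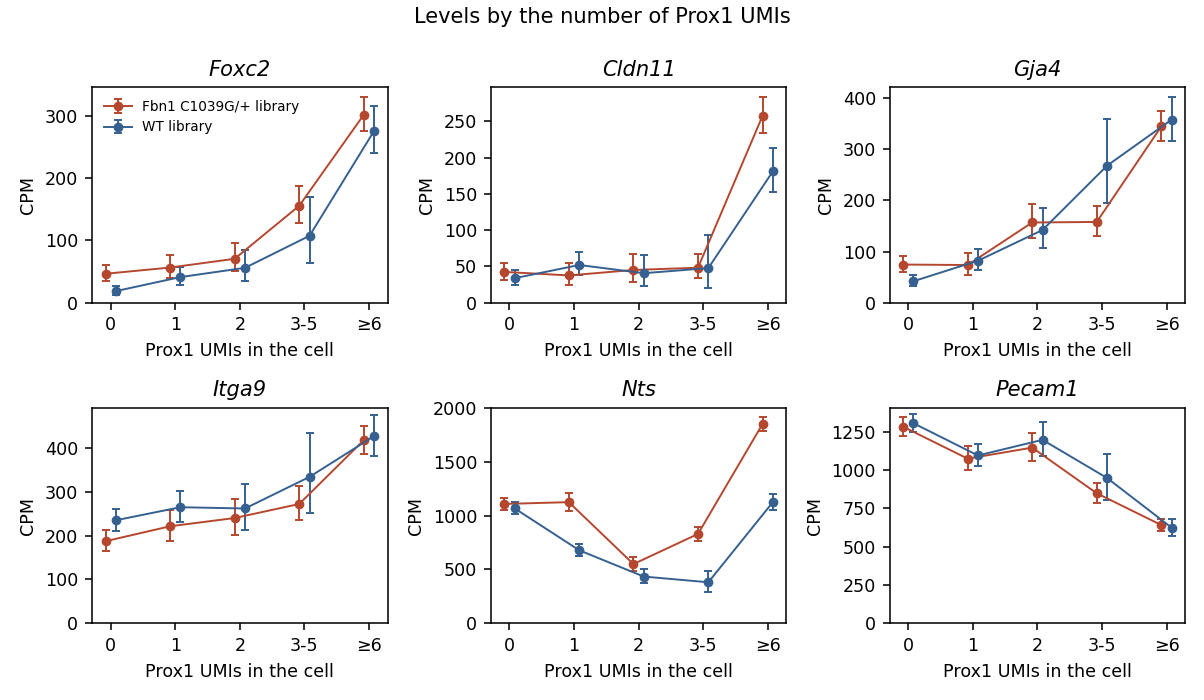
Level (CPM, with exact Poisson 95% intervals) of Foxc2, Cldn11, Gja4, Itga9, Nts and Pecam1 in endothelial cells binned by Prox1 UMIs, for the Fbn1 C1039G/+ and WT libraries. Foxc2 climbs from bin to bin in both libraries, Cldn11 is high only in the bin with 6 or more Prox1 UMIs (258 CPM in the Fbn1 C1039G/+ and 181 CPM in the WT library), and Pecam1, a gene of the rule, declines.

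The second comparison set the Prox1-positive against the Prox1-zero cells within each library. The UMIs of a class were added up, and edgeR's quasi-likelihood test was run with the library as a block, p-values being adjusted over all genes by the Benjamini-Hochberg method. The only replicates behind the p-values are these 2 libraries, which also differ in genotype, with 1 residual degree of freedom per gene. edgeR pulls the spread of each gene towards that of all genes, here with a median weight of 6.985 degrees of freedom. The p-values thus rest more on the spread shared over genes than on a gene's own spread between the libraries. Of 9018 genes tested, 330 were higher in the Prox1-positive cells (3.66%) and 431 were lower (4.78%) at an adjusted p under 0.05, and the median log2 ratio over all of them was 0.02. With the interstitial rule genes under 0.3% of UMIs, 251 were higher and 319 lower. Sums over cells cannot tell apart fewer cells that express a gene from less of its RNA per cell, so shares of cells are given for the main genes.

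One of the largest ratios was that of Cldn5 (ENSMUSG00000041378, chr16:18776847-18778262), the claudin that seals endothelial tight junctions, and it stood at 407 CPM in the Fbn1 C1039G/+ and 429 CPM in the WT Prox1-positive cells, against 24.4 and 13.8 CPM in the Fbn1 C1039G/+ and WT Prox1-zero cells, a log2 ratio of 4.45 ± 0.22 (SE, 2 libraries, edgeR adjusted p = 0.000136). Cldn5 was detected in 39.6% of Fbn1 C1039G/+ and 39.7% of WT Prox1-positive cells, against 5.93% and 3.23% of the Fbn1 C1039G/+ and WT Prox1-zero cells and 0.175% and 0.180% of the Fbn1 C1039G/+ and WT interstitial cells. Both libraries gave similar levels, the levels of the classes did not overlap, and most Prox1-positive cells still had no Cldn5 UMI.

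Among 23 measured genes of the list of lymphatic regulators, receptors and lymphatic valve genes, 9 were higher and 3 lower in the Prox1-positive cells, with a median log2 ratio of 0.40. Foxc2 stood at 219.6 CPM in the Fbn1 C1039G/+ and 189.5 CPM in the WT Prox1-positive cells, against 46.4 and 18.6 CPM in the Fbn1 C1039G/+ and WT Prox1-zero cells (log2 2.68 ± 0.25 SE, edgeR adjusted p = 0.000828). Gja4 stood at 261 CPM in the Fbn1 C1039G/+ and 283 CPM in the WT Prox1-positive cells, against 74.7 and 42.0 CPM in the Fbn1 C1039G/+ and WT Prox1-zero cells (log2 2.22 ± 0.22 SE, edgeR adjusted p = 0.00112). Both genes are needed for lymphatic valves, and both were several-fold higher in either library. Efnb2, the ephrin-B2 ligand that also marks arteries, stood at 558 CPM in the Fbn1 C1039G/+ and 473 CPM in the WT Prox1-positive cells, against 144 and 84.0 CPM in the Fbn1 C1039G/+ and WT Prox1-zero cells (log2 2.19, edgeR adjusted p = 0.000489). Cldn11 stood at 163 CPM in the Fbn1 C1039G/+ and 123 CPM in the WT Prox1-positive cells, against 42.4 and 33.7 CPM in the Fbn1 C1039G/+ and WT Prox1-zero cells (log2 1.88 ± 0.16 SE, edgeR adjusted p = 0.000576). The forkhead genes Foxc1 (log2 1.51) and Foxp2 (log2 2.01), Itga9 (log2 0.74) and the mechanosensitive channel gene Piezo1 (log2 0.67) were also higher. The 3 lower members were Gja1 (connexin 43, log2 -1.50), the receptor gene Fgfr3 (log2 -1.33) and the lymphatic growth factor gene Vegfc (log2 -1.36). Of the genes named here, Foxc2, Foxc1, Foxp2, Gja4, Efnb2, Cldn11 and Gja1 kept their call under every alternative in which they were tested, and Piezo1 and Vegfc lost theirs under 6 or more.

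Cldn5, Cldn11, Gja4 and Efnb2 were higher together, and the stretch before their starts is shown so that the genes behind this difference can be read as sequence. The 4 stretches are the 250 bases before the RefSeq start in GRCm38.p6, on the strand of the gene, from chr16:18776597-18776846 (plus strand) for Cldn5, chr3:31149670-31149919 (plus strand) for Cldn11, chr8:8661243-8661492 (minus strand) for Efnb2 and chr4:127314040-127314289 (minus strand) for Gja4. Capitals mark the letters CCAAT or, on the other strand, ATTGG.
Cldn5: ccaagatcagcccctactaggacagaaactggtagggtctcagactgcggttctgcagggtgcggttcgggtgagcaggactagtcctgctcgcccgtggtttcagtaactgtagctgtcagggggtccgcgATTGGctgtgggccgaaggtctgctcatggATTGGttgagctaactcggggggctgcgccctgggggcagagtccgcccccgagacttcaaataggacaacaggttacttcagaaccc
Cldn11: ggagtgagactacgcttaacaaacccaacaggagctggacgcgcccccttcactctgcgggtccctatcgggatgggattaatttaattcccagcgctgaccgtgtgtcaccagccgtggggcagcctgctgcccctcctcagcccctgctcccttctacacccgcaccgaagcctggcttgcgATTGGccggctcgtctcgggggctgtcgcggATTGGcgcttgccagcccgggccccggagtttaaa
Efnb2: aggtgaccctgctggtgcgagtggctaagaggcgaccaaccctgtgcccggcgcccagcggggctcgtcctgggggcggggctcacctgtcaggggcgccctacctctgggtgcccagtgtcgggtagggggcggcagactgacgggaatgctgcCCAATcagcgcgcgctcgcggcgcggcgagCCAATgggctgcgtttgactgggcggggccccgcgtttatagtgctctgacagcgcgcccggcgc
Gja4: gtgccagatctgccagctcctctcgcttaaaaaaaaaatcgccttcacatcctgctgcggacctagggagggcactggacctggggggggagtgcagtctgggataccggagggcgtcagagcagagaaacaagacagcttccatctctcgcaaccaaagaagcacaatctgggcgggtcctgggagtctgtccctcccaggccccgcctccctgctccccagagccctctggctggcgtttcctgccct
Searched on both strands, the CCAAT letters were found at 2 places each in Cldn5, Cldn11 and Efnb2 and at 0 in Gja4. They lay 118 and 88 bases before the start in Cldn5, 66 and 35 bases before it in Cldn11, and 95 and 65 bases before it in Efnb2. Of all 32851 promoter windows of the table, 33.8% held at least 1 CCAAT or ATTGG, and this motif was added after the stretches had been read. The letters GTAAACA of forkhead factors, CCGGAAG of ETS factors and AGATAA of GATA factors, present in 3.17%, 6.91% and 9.99% of all windows, matched in none of the 4 stretches. That says only that these letters are not in these windows.

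Of 23 pan-endothelial genes outside the rule, 5 were higher and 6 lower in the Prox1-positive cells, with a median log2 ratio of 0.10. Besides Cldn5, the higher ones included Kdr, the main VEGF receptor, with 217 CPM in the Fbn1 C1039G/+ and 315 CPM in the WT Prox1-positive cells, against 83.3 and 88.8 CPM in the Fbn1 C1039G/+ and WT Prox1-zero cells (log2 1.59, edgeR adjusted p = 0.00112). Egfl7, a secreted endothelial protein gene, stood at 1832 CPM in the Fbn1 C1039G/+ and 2226 CPM in the WT Prox1-positive cells, against 1056 and 724 CPM in the Fbn1 C1039G/+ and WT Prox1-zero cells (log2 1.19, edgeR adjusted p = 0.0152). The lower ones included the junction gene Esam, with 148 CPM in the Fbn1 C1039G/+ and 188 CPM in the WT Prox1-positive cells, against 340.4 and 452 CPM in the Fbn1 C1039G/+ and WT Prox1-zero cells (log2 -1.25, edgeR adjusted p = 0.00124). Among 21 junction genes 4 were higher and 6 lower, so the Prox1-positive cells had more Cldn5, Cldn11 and Gja4 and less Esam, Jam2 (log2 -1.18) and Gja1.

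**Figure D3:**
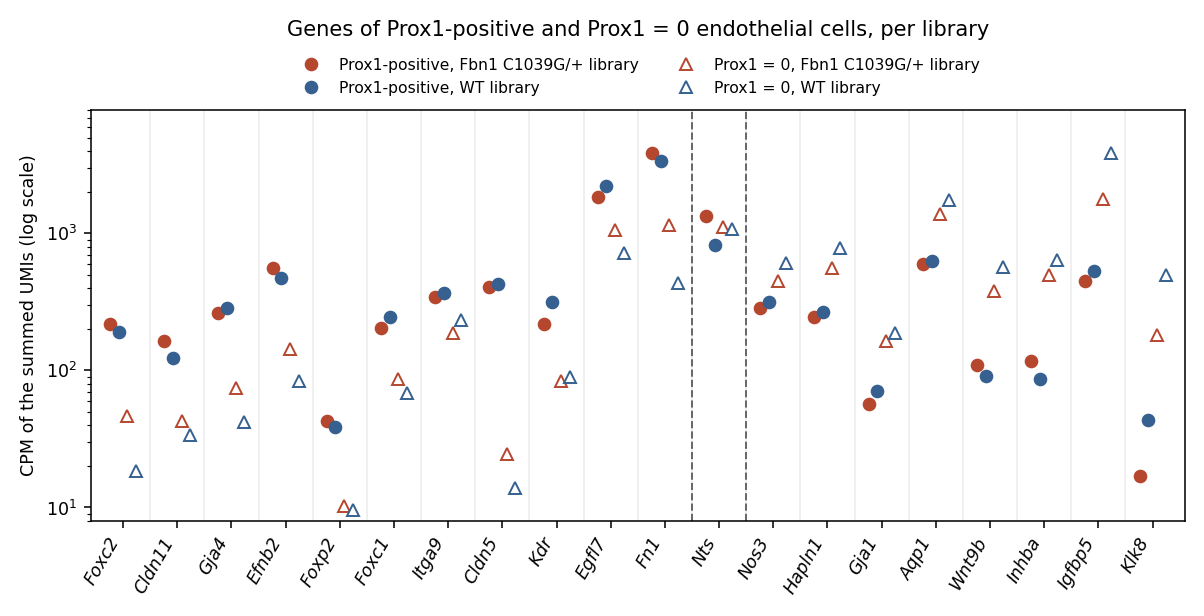
Level (CPM, log axis) of 20 genes in Prox1-positive and Prox1-zero cells of the Fbn1 C1039G/+ and WT libraries, 1 point per class and library. Cldn5, Foxc2, Gja4, Efnb2 and Fn1 lie higher in the Prox1-positive cells of both libraries, Nts shows no such gap, and Wnt9b, Inhba, Igfbp5 and Klk8 lie lower.

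Of 20 measured genes of the endocardium and of valve endothelium, 2 were higher and 5 lower, with a median log2 ratio of -0.20. Wnt9b, a Wnt ligand of valve endothelium, stood at 109.6 CPM in the Fbn1 C1039G/+ and 91.4 CPM in the WT Prox1-positive cells, against 377 and 569 CPM in the Fbn1 C1039G/+ and WT Prox1-zero cells (log2 -2.21 ± 0.20 SE, edgeR adjusted p = 0.000814). Hapln1, which links hyaluronan to proteoglycans, stood at 246 CPM in the Fbn1 C1039G/+ and 267 CPM in the WT Prox1-positive cells, against 559 and 777 CPM in the Fbn1 C1039G/+ and WT Prox1-zero cells (log2 -1.38, edgeR adjusted p = 0.00134). Nfatc1, the valve endocardial transcription factor, did not pass the test, with 175 CPM in the Fbn1 C1039G/+ and 134 CPM in the WT Prox1-positive cells, against 180.0 and 125 CPM in the Fbn1 C1039G/+ and WT Prox1-zero cells (log2 0.01, edgeR adjusted p = 0.984). Wnt9b and Hapln1 were lower under every alternative.

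Of 18 Wnt pathway genes 2 were higher and 2 lower. The 2 lower ones were ligand and modulator genes, Wnt9b and Dkk2, a secreted Dickkopf protein gene with 105 CPM in the Fbn1 C1039G/+ and 87.7 CPM in the WT Prox1-positive cells, against 278 and 316 CPM in the Fbn1 C1039G/+ and WT Prox1-zero cells (log2 -1.63, edgeR adjusted p = 0.000814). The receptor gene Fzd10 was higher, with 67.9 CPM in the Fbn1 C1039G/+ and 40.5 CPM in the WT Prox1-positive cells, against 18.9 and 15.1 CPM in the Fbn1 C1039G/+ and WT Prox1-zero cells (log2 1.63, edgeR adjusted p = 0.00404). Of 15 Notch pathway genes 0 were higher by edgeR, also at an unadjusted p under 0.05, and 0 by DESeq2, and 3 were lower by edgeR, among them the target gene Hey2 (log2 -1.14, edgeR adjusted p = 0.00832) and the ligand gene Jag1 (log2 -0.73, edgeR adjusted p = 0.0427), the second of which lost its call under 5 of 14 alternatives.

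In the TGF-beta and BMP pathway 4 of 33 genes were higher and 6 lower, with a median log2 ratio of 0.10. Among the ligands, the activin subunit gene Inhba stood at 118 CPM in the Fbn1 C1039G/+ and 86.9 CPM in the WT Prox1-positive cells, against 498 and 637 CPM in the Fbn1 C1039G/+ and WT Prox1-zero cells (log2 -2.47 ± 0.19 SE, edgeR adjusted p = 0.000478). Inhbb, the other activin subunit, was lower as well (log2 -1.97, edgeR adjusted p = 0.00163). Fst, which encodes follistatin, the inhibitor that binds activin, was higher, with 487 CPM in the Fbn1 C1039G/+ and 226 CPM in the WT Prox1-positive cells, against 261 and 97.1 CPM in the Fbn1 C1039G/+ and WT Prox1-zero cells (log2 1.02, edgeR adjusted p = 0.00486). The 2 activin subunits and their inhibitor thus differed in opposite directions in both libraries. Ltbp1, which tethers latent TGF-beta to the matrix, was higher (log2 1.35, edgeR adjusted p = 0.00404), and Ltbp2, a related microfibril protein gene, was lower (log2 -1.48, edgeR adjusted p = 0.0042). Tgfb2 was lower (log2 -1.10, edgeR adjusted p = 0.00472) but lost its call under 5 of 14 alternatives, and Tgfb1 did not pass the test (log2 -0.40, edgeR adjusted p = 0.159).

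Of 33 measured matrix genes 7 were higher and 2 lower, with a median log2 ratio of 0.07. Fn1 (fibronectin) stood at 3847 CPM in the Fbn1 C1039G/+ and 3356 CPM in the WT Prox1-positive cells, against 1141 and 432 CPM in the Fbn1 C1039G/+ and WT Prox1-zero cells (log2 2.33 ± 0.29 SE, edgeR adjusted p = 0.00279). Interstitial cells held 151 CPM of Fn1 in the Fbn1 C1039G/+ and 75.5 CPM in the WT library, far below either endothelial class. Postn (periostin), counted with the genes of endothelial-to-mesenchymal transition, stood at 2219.6 CPM in the Fbn1 C1039G/+ and 2016 CPM in the WT Prox1-positive cells, against 605 and 274 CPM in the Fbn1 C1039G/+ and WT Prox1-zero cells (log2 2.35, edgeR adjusted p = 0.00145). Interstitial cells had 2384 CPM of Postn in the Fbn1 C1039G/+ and 1711 CPM in the WT library, while Dcn, a proteoglycan gene of interstitial cells, stood at 3169 CPM in the Fbn1 C1039G/+ and 3466 CPM in the WT Prox1-positive cells, against 19663 and 18318 CPM in the Fbn1 C1039G/+ and WT interstitial cells. Prox1-positive cells thus held about as much Postn on the CPM scale as interstitial cells. Dcn is a gene of the rule, held low in endothelial cells, and interstitial cells were chosen by the same matrix genes. Its gap was therefore set by the choice of cells and tests nothing about Postn.

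Microfibril genes, the family of the mutated protein, were split. Fbn2 (fibrillin-2) stood at 76.5 CPM in the Fbn1 C1039G/+ and 89.9 CPM in the WT Prox1-positive cells, against 11.8 and 4.13 CPM in the Fbn1 C1039G/+ and WT Prox1-zero cells (log2 3.38 ± 0.34 SE, edgeR adjusted p = 0.00112), and interstitial cells had 45.5 CPM in the Fbn1 C1039G/+ and 33.6 CPM in the WT library. Mfap2, a microfibril-associated glycoprotein gene, was higher (log2 1.67, edgeR adjusted p = 0.000943) and its relative Mfap5 lower (log2 -1.91, edgeR adjusted p = 0.000378). Fbn1 itself did not differ detectably, with 126 CPM in the Fbn1 C1039G/+ and 126 CPM in the WT Prox1-positive cells, against 141 and 117 CPM in the Fbn1 C1039G/+ and WT Prox1-zero cells (log2 -0.05, edgeR adjusted p = 0.879). Col18a1, whose collagen XVIII carries endostatin, was higher, with 263 CPM in the Fbn1 C1039G/+ and 166 CPM in the WT Prox1-positive cells, against 77.0 and 41.3 CPM in the Fbn1 C1039G/+ and WT Prox1-zero cells (log2 1.85, edgeR adjusted p = 0.000505). Fn1, Postn, Fbn2, Mfap2, Mfap5, Ltbp1 and Col18a1 kept their calls under every alternative, including the one with interstitial rule genes under 0.3% of UMIs.

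Genes that act on vessel tone and clotting differed too. Of 19 vasoactive genes 3 were higher and 6 lower. Nos3, the endothelial nitric oxide synthase, stood at 287 CPM in the Fbn1 C1039G/+ and 316 CPM in the WT Prox1-positive cells, against 452 and 607 CPM in the Fbn1 C1039G/+ and WT Prox1-zero cells (log2 -0.81, edgeR adjusted p = 0.0101). Ptgis (prostacyclin synthase, log2 -1.51, edgeR adjusted p = 0.002) and Ramp3 (a partner of the adrenomedullin receptor, log2 -2.33, edgeR adjusted p = 0.000378) were also lower, and the endothelin B receptor gene Ednrb was higher (log2 1.96, edgeR adjusted p = 0.00832). Nppc, which encodes C-type natriuretic peptide, was lower (log2 -3.27, edgeR adjusted p = 0.000587), but 5 or fewer cells held all of its UMIs in the Prox1-positive cells of either library, and the call was lost against Prox1-zero cells of like depth. Of 14 clotting genes the anticoagulant genes Thbd (thrombomodulin, log2 0.83, edgeR adjusted p = 0.00777), Procr (protein C receptor, log2 1.02, edgeR adjusted p = 0.00517) and Tfpi (log2 0.98, edgeR adjusted p = 0.00504) were higher together with Serpine2, and the plasminogen activator gene Plat (log2 -0.83, edgeR adjusted p = 0.00759) and the urokinase receptor gene Plaur (log2 -1.28, edgeR adjusted p = 0.014) were lower. Procr lost its call under 4 of 14 alternatives and Serpine2 under 5 of 13.

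Flow-responsive genes were split, 4 of 23 higher and 6 lower, and the flow-induced factor Klf2 did not pass the test (log2 0.22, edgeR adjusted p = 0.517). Among blood vessel genes, 2 of 13 were higher, the venule gene Lrg1 among them, and 4 lower. Ackr1, a venous marker of this list, had a UMI in 16.0% of Fbn1 C1039G/+ and 14.7% of WT Prox1-positive cells. In the Prox1-zero cells these shares were 1.69% in the Fbn1 C1039G/+ and 2.42% in the WT library. After thinning they were 7.86% and 7.69% in the Fbn1 C1039G/+ and WT Prox1-positive cells, against 1.05% and 2.88% in the Prox1-zero cells. These exact intervals overlapped in both libraries. Summed, the venous markers Ackr1, Selp and Vwf were lower in the Fbn1 C1039G/+ Prox1-positive cells (173 against 239 CPM in Prox1-zero cells) and higher in the WT ones (202 against 118 CPM). Aqp1, a water channel of capillaries, stood at 601 CPM in the Fbn1 C1039G/+ and 628 CPM in the WT Prox1-positive cells, against 1389 and 1753 CPM in the Fbn1 C1039G/+ and WT Prox1-zero cells (log2 -1.36, edgeR adjusted p = 0.00194). Ly6c1 stood at 68.3 CPM in the Fbn1 C1039G/+ and 50.2 CPM in the WT Prox1-positive cells, against 365 and 429 CPM in the Fbn1 C1039G/+ and WT Prox1-zero cells (log2 -2.74, edgeR adjusted p = 0.000248). Capillary markers as a list, 5 of 6 of them detected and Car4 at 0, summed to 685 CPM in the Fbn1 C1039G/+ and 939 CPM in the WT Prox1-positive cells, against 1813 and 1943 CPM in the Fbn1 C1039G/+ and WT Prox1-zero cells. Aqp1 and Fabp4 made up most of this sum. Cd36, of the same list, went the other way, with 74.8 CPM in the Fbn1 C1039G/+ and 249 CPM in the WT Prox1-positive cells, against 62.1 and 20.7 CPM in the Fbn1 C1039G/+ and WT Prox1-zero cells, and Gpihbp1 was at 3.93 CPM or less in either class. The part of capillary cells in the lower genes was not tested.

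Among growth factor genes 4 of 23 were higher and 3 lower. Igfbp5, which binds insulin-like growth factors, stood at 451 CPM in the Fbn1 C1039G/+ and 536 CPM in the WT Prox1-positive cells, against 1791 and 3847 CPM in the Fbn1 C1039G/+ and WT Prox1-zero cells (log2 -2.43, edgeR adjusted p = 0.000833). The imprinted ligand gene Igf2 was higher, with 342 CPM in the Fbn1 C1039G/+ and 708 CPM in the WT Prox1-positive cells, against 199.7 and 143 CPM in the Fbn1 C1039G/+ and WT Prox1-zero cells (log2 1.52, edgeR adjusted p = 0.0247). Of 27 guidance and integrin genes 4 were higher and 8 lower, among the lower the secreted semaphorin genes Sema3c (log2 -2.56, edgeR adjusted p = 0.00124) and Sema3d (log2 -1.62, edgeR adjusted p = 0.00833). Of 23 immediate early and stress genes 7 were higher and 1 lower, among the higher Egr1, with 260.3 CPM in the Fbn1 C1039G/+ and 288 CPM in the WT Prox1-positive cells, against 133 and 108 CPM in the Fbn1 C1039G/+ and WT Prox1-zero cells (log2 1.17, edgeR adjusted p = 0.00361). Interstitial cells, which went through the same digestion, held 499 CPM of Egr1 in the Fbn1 C1039G/+ and 804 CPM in the WT library. Of the other lists, genes of interferon response had 1 higher and 1 lower of 18, cell cycle genes 2 and 2 of 16, antigen presentation 2 higher and 1 lower of 12, chemokines and adhesion 1 and 2 of 17, lipid transport 0 higher by edgeR (3 at an unadjusted p under 0.05, 0 by DESeq2) and 4 lower of 14, and endothelial-to-mesenchymal genes 4 and 2 of 14.

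The 12 largest and 12 smallest ratios were taken among genes that passed the test and differed at least 1.5-fold in both libraries. Sbspon, a secreted thrombospondin-repeat protein gene, was seen in 21.5% of Fbn1 C1039G/+ and 17.6% of WT Prox1-positive cells, against 0.847% and 0.806% of the Fbn1 C1039G/+ and WT Prox1-zero cells (log2 5.80, edgeR adjusted p = 0.000376). Others with Cldn5 and Sbspon were Col12a1, the secreted ribonuclease gene Rnase1, Coch (cochlin), the aquaporin gene Aqp8, Lypd6, Slc7a14, Kif26b, Cux2 and Padi3. At the low end, Klk8, a secreted serine protease gene, stood at 16.9 CPM in the Fbn1 C1039G/+ and 43.5 CPM in the WT Prox1-positive cells, against 181 and 499 CPM in the Fbn1 C1039G/+ and WT Prox1-zero cells (log2 -3.49 ± 0.15 SE, edgeR adjusted p = 6.25e-05). Stmn3, Fabp4, Sfrp4, Rbp7, Ache, Areg, Tagln, Nppc, Tmem26, Stmn2 and Ly6c1 were the others. Of these, Tagln and Fabp4 rested on few Prox1-zero cells, 5 of which held 99.1% of the Tagln and 76.7% of the Fabp4 UMIs in the Fbn1 C1039G/+ library, and each lost its call under some alternatives.

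Endothelial cells were clustered without the genes of the rule, to show where the Prox1-positive cells lay. They were spread over all 8 clusters and not gathered in 1. Cluster 4 held 29.2% of the Fbn1 C1039G/+ and 29.4% of the WT Prox1-positive cells, against 4.24% and 2.42% of the Fbn1 C1039G/+ and WT Prox1-zero cells. It was led by Rnase1, Hamp, Fbn2, Enpp2 and Ahsg, and it had the highest Cldn5 (865 CPM) and Foxc2 (401 CPM) and little Nts (57.0 CPM). Cluster 2 was the reverse, with 4.17% of the Fbn1 C1039G/+ and 8.82% of the WT Prox1-positive cells, against 23.7% and 50% of the Fbn1 C1039G/+ and WT Prox1-zero cells, and it was led by Adamts5, Meg3, Igfbp5, Sema3c and Klk8 and held 811 CPM of Wnt9b. Klk8, Igfbp5 and Sema3c, lower in the Prox1-positive class, are thus also leading genes of a cluster that holds few of its cells.

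Cluster 5, led by Nrg1, Pdgfb, Wnt7a, Tubb2b and Adamts8, had the most Nts (2044 CPM) and held 22.9% of the Fbn1 C1039G/+ and 8.82% of the WT Prox1-positive cells. Cluster 7, led by Cd36, Ctsh, Sult1a1, Lpl and Sncaip, held 10.4% of the Fbn1 C1039G/+ and 17.6% of the WT Prox1-positive cells. Cluster 3, led by the cycling genes Hist1h1b, Top2a, Ube2c, Cdk1 and Cenpf, held 11.8% of the Fbn1 C1039G/+ and 5.88% of the WT Prox1-positive cells. Cluster 1 (H19, Ptn, Igf2, Abcb1a, Ednrb) held 8.33% of the Fbn1 C1039G/+ and 13.2% of the WT Prox1-positive cells, cluster 0 (Fabp4, Fmo2, Podn, Osr1, Galnt15) 9.72% and 13.2% of the Fbn1 C1039G/+ and WT cells, and cluster 6 (Cd74, H2-Aa, H2-Eb1, H2-Ab1, Myoc) 3.47% and 2.94% of the Fbn1 C1039G/+ and WT cells. The makeup of the Prox1-positive class thus differed between the libraries, most of all in cluster 5, which rested on 33 Fbn1 C1039G/+ and 6 WT cells. Cluster 5 also held 17.8% of the Fbn1 C1039G/+ and 8.87% of the WT Prox1-zero cells. Its larger part in the Fbn1 C1039G/+ library was thus not particular to the Prox1-positive class.

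**Figure D4:**
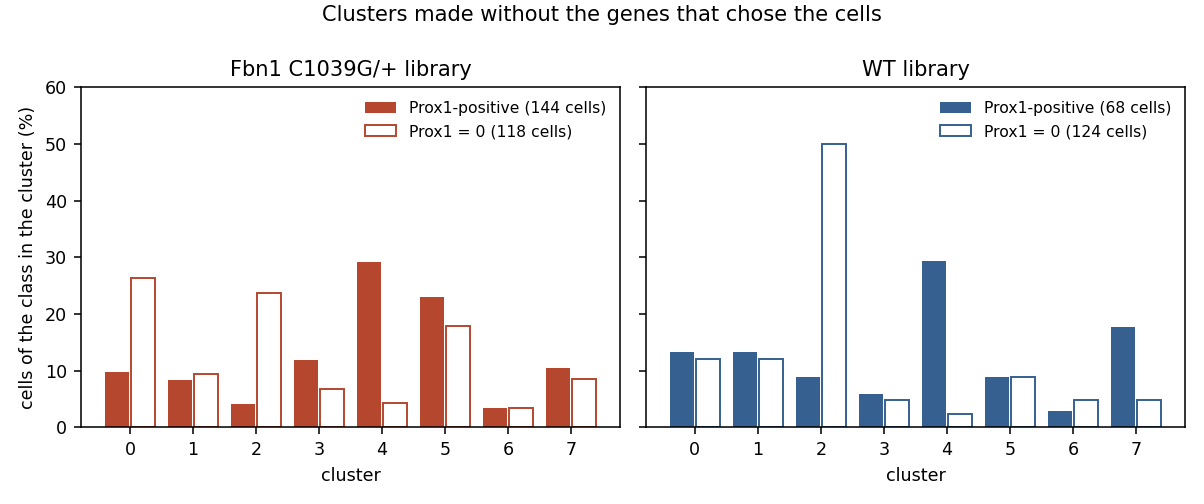
Percent of the Prox1-positive and of the Prox1-zero cells of the Fbn1 C1039G/+ and WT libraries that lie in each of 8 endothelial clusters. Cluster 4 takes 29.2% of the Fbn1 C1039G/+ and 29.4% of the WT Prox1-positive cells, cluster 2 takes 50% of the WT Prox1-zero cells, and cluster 5 takes 22.9% of the Fbn1 C1039G/+ but 8.82% of the WT Prox1-positive cells.

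Some class differences held inside clusters and others did not. In the 12 cluster and library pairs with at least 5 cells of each class, Foxc2 and Efnb2 were higher in the Prox1-positive cells in 11, Gja4 and Fn1 in 10, Foxc1 in 9, Kdr in 8, and Cldn11 in 9 of the 11 pairs where it had UMIs. Cldn5 had UMIs in 7 of the 12 pairs and was higher in the Prox1-positive cells in 6 of these 7. Igfbp5 and Hapln1 were higher in 6 of 12 and Nos3 in 5, Nts in 7 of the 10 pairs where it had UMIs, Wnt9b in 3 of 10 and Inhba in 3 of 12. In clusters 0 and 1 Cldn5 was at 0 in both classes of both libraries. These are directions of sums over few cells and are given without a test.

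The third comparison asked what differed by genotype within the Prox1-positive cells. A gene was called higher or lower where the ratio of Fbn1 C1039G/+ to WT was at least 1.5-fold and its exact 95% counting interval excluded 1, with no p-value, since each genotype had 1 library. Of 7289 genes measured, 338 were higher in the Fbn1 C1039G/+ Prox1-positive cells (4.64%) and 216 lower (2.96%), with a median log2 ratio of 0.04. In the Prox1-zero cells 380 of 7204 were higher (5.27%) and 293 lower (4.07%) in the Fbn1 C1039G/+ library. Calls were thus no more frequent in the Prox1-positive than in the Prox1-zero cells, and genotype and the mice pooled in each library cannot be told apart.

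Fbn1 transcript was the same in both, at 126 CPM in the Fbn1 C1039G/+ and 126 CPM in the WT Prox1-positive cells, a ratio of 1.00 (0.833 to 1.21). A 3′ count does not separate the C1039G allele from the normal one, so this is no check of the genotype. The genes that set the class apart were also close. The ratio was 1.16 (1.00 to 1.35) for Foxc2, 1.33 (1.11 to 1.59) for Cldn11, 0.921 (0.813 to 1.05) for Gja4, 1.18 (1.08 to 1.30) for Efnb2 and 0.949 (0.858 to 1.05) for Cldn5, none of them past 1.5-fold. The Fbn1 C1039G/+ library thus held more Prox1-positive cells, while these 5 genes differed in them by less than 1.5-fold in the main setting. Only Cldn5 stayed without a call under all 13 alternatives. Gja4 was called in female cells, in male cells and with interstitial rule genes under 0.3% (log2 -0.63 to 1.01 over the alternatives). Foxc2 was called in male cells (log2 up to 0.74), Efnb2 with interstitial rule genes under 0.3% (0.78) and Cldn11 without the cells of high doublet score (0.65). Of 20 measured genes of the lymphatic list 1 was higher, the laminin gene Lama5, which lost its call under 3 of 13 alternatives, and 0 lower by this rule. In the Prox1-zero cells 4 of 21 were higher and 2 lower.

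TGF-beta and BMP genes had 5 of 30 higher and 1 lower, with a median log2 ratio of 0.10. In the Prox1-zero cells 8 of 31 were higher and 1 lower. Bmp4 stood at 194 CPM (178 to 211) in the Fbn1 C1039G/+ and 84.7 CPM (69.8 to 102) in the WT Prox1-positive cells, a ratio of 2.29 (1.87 to 2.83), and at 313 and 183 CPM in the Fbn1 C1039G/+ and WT Prox1-zero cells. Fst stood at 487 CPM in the Fbn1 C1039G/+ and 226 CPM in the WT Prox1-positive cells, a ratio of 2.15 (1.90 to 2.44), and at 261 and 97.1 CPM in the Fbn1 C1039G/+ and WT Prox1-zero cells. Bmp2 (ratio 2.46, 1.81 to 3.39) and Bmp6 (1.99, 1.46 to 2.76) were higher as well, and each had a similar or larger ratio in the Prox1-zero cells (3.25 for Bmp2, 2.59 for Bmp6). The TGF-beta ligands themselves were closer, with a ratio of 1.16 for Tgfb1 and 1.35 (1.03 to 1.80) for Tgfb2. Bmp4 kept its call under all 13 alternatives, cells of each sex alone included. Fst lost its call in female cells and with interstitial rule genes under 0.3% (log2 down to 0.37), Bmp6 in female cells (log2 0.50) and with thinned cells, and Bmp2 with thinned cells.

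Growth factors had 6 of 22 higher and 2 lower. In the Prox1-zero cells 8 of 22 were higher and 3 lower. Hbegf (heparin-binding EGF-like growth factor) stood at 529 CPM in the Fbn1 C1039G/+ and 192 CPM in the WT Prox1-positive cells, a ratio of 2.76 (2.41 to 3.16). Nrg1 (neuregulin 1) stood at 97.2 CPM in the Fbn1 C1039G/+ and 27.0 CPM in the WT Prox1-positive cells (ratio 3.6, 2.54 to 5.25). Pdgfb, a ligand for mural cells, had a ratio of 2.19 (1.70 to 2.86). These 3 calls did not hold in each sex: in male cells alone the log2 ratio was 0.56 for Hbegf and 0.53 for Nrg1, and in female cells alone it was 0.44 for Pdgfb, none of them called, and 1 sex of the Fbn1 C1039G/+ pool was a single mouse. Nrg1 and Pdgfb, like Wnt7a (ratio 5.42, 3.07 to 10.4), Nrtn (5.35, 2.89 to 11) and Col12a1 (3.17, 2.42 to 4.24), are also among the 10 leading genes of cluster 5, which held a larger part of the Fbn1 C1039G/+ cells. Col12a1 lost its call with thinned cells (log2 0.37). For these genes, a change within cells and the larger part of cluster 5 cannot be told apart here. The imprinted Igf2 was lower, at 342 CPM in the Fbn1 C1039G/+ and 708 CPM in the WT Prox1-positive cells (ratio 0.484, 0.442 to 0.529), and it leads cluster 1, which held a larger part of the WT cells.

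Of 15 cell cycle genes 4 were higher and 0 lower by this rule, with a median log2 ratio of 0.11. In the Prox1-zero cells 8 of 16 were higher and 1 lower, with a median log2 ratio of 0.62. Of the 4, the inhibitor gene Cdkn1a kept its call under 9 of 13 alternatives and Mcm2 under 8 of 11. Pcna, another of them, turned to a log2 ratio of -0.0811 in male cells. Ccnd1 (cyclin D1) stood at 506 CPM in the Fbn1 C1039G/+ and 252 CPM in the WT Prox1-positive cells, a ratio of 2.01 (1.78 to 2.27), and interstitial cells had 151 and 88.9 CPM of it in the Fbn1 C1039G/+ and WT libraries. Hspb1 (heat shock protein 27) stood at 521 CPM in the Fbn1 C1039G/+ and 214 CPM in the WT Prox1-positive cells, a ratio of 2.44 (2.15 to 2.78), against 1.02 (0.928 to 1.12) in the Prox1-zero cells. S100a4, a calcium-binding protein gene of motile cells, had a ratio of 2.43 (1.92 to 3.12), against 1.20 (0.927 to 1.55) in the Prox1-zero cells. Hspb1 and S100a4 thus differed between the 2 libraries in the Prox1-positive cells, with ratios near 1 in the Prox1-zero cells. That difference of ratios was not tested. Of 22 immediate early and stress genes measured in the Prox1-zero cells 2 were higher and 3 lower. In the Prox1-positive cells 5 of 23 were higher, among them Atf3 (ratio 3.11, 2.52 to 3.87), and 3 lower, among them Fosb (0.334, 0.222 to 0.498). Atf3 lost its call in male cells (log2 0.43), Fosb without the cells of high doublet score and with interstitial rule genes under 0.3% (log2 -0.49), and Hspa1a, another of the 5, turned to -0.0758 in male cells.

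**Figure D5:**
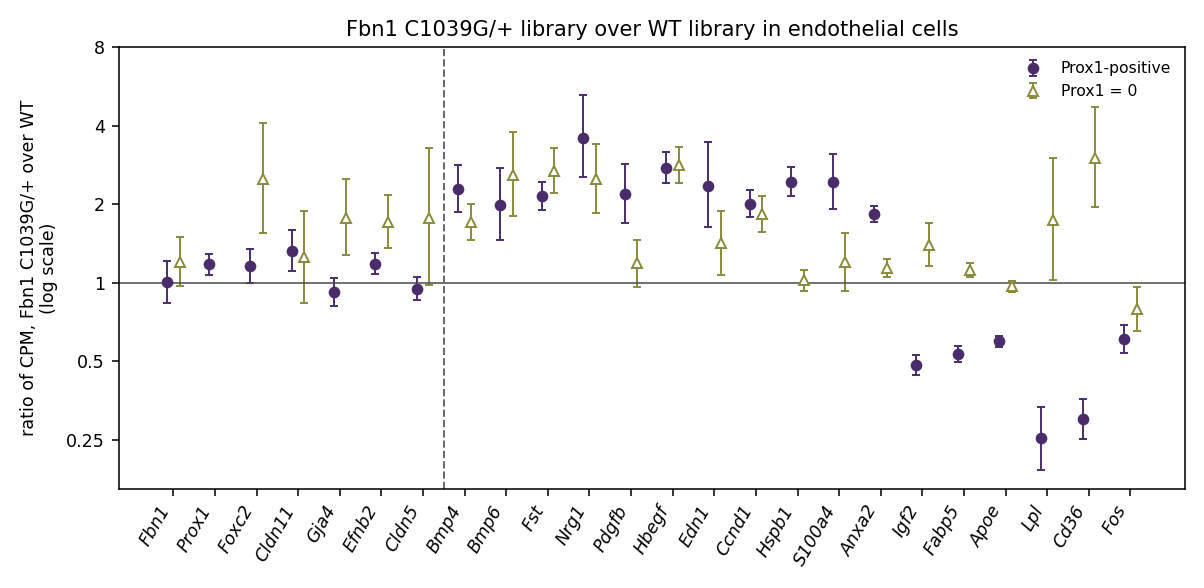
Ratio of Fbn1 C1039G/+ to WT level (log axis, with exact 95% counting intervals) for 24 genes in Prox1-positive and Prox1-zero cells. Fbn1, Foxc2, Gja4 and Cldn5 lie near 1 in the Prox1-positive cells, Bmp4, Hspb1 and S100a4 lie above 2, and Igf2 and Lpl lie below 0.5.

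Of 12 lipid transport genes measured in the Prox1-zero cells 6 were higher and 2 lower in the Fbn1 C1039G/+ library. Of 11 measured in the Prox1-positive cells 2 were higher and 6 lower in the Fbn1 C1039G/+ library, with a median log2 ratio of -0.66. Lpl (lipoprotein lipase) stood at 28.3 CPM in the Fbn1 C1039G/+ and 112 CPM in the WT cells, a ratio of 0.253 (0.191 to 0.334), with a UMI in 28.5% of Fbn1 C1039G/+ and 48.5% of WT cells. Cd36, a fatty acid receptor gene, stood at 74.8 CPM in the Fbn1 C1039G/+ and 249 CPM in the WT cells (ratio 0.30, 0.252 to 0.357), but 5 cells held 64.5% of its UMIs in the Fbn1 C1039G/+ and 80.8% in the WT library. The fatty acid binding protein gene Fabp5 had a ratio of 0.532 (0.495 to 0.572) and Apoe 0.595 (0.568 to 0.623), against 1.12 and 0.969 for Fabp5 and Apoe in the Prox1-zero cells. Fabp5 lost its call with at least 3 Prox1 UMIs required (log2 -0.47) and Apoe with at least 1 (log2 -0.58). Cd36 and Lpl lead cluster 7, which held a larger part of the WT cells. Lpl was lower under all 13 alternatives, and Cd36 was higher in the Fbn1 C1039G/+ cells with interstitial rule genes under 0.3% of UMIs (log2 1.96).

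Antigen presentation genes had 0 higher by this rule and 5 lower of 11 in the Prox1-zero cells. In the Prox1-positive cells 0 were higher by this rule and 4 lower of 11, the class II genes H2-Aa, H2-Ab1 and H2-Eb1 and the invariant chain gene Cd74. With interstitial rule genes under 0.3% of UMIs, Cd74 (log2 0.45) and H2-Ab1 (log2 1.23) were instead higher in the Fbn1 C1039G/+ cells. In all Prox1-positive cells, Cd74 stood at 110.0 CPM in the Fbn1 C1039G/+ and 424 CPM in the WT Prox1-positive cells, but 5 cells held 91.3% of its UMIs in the WT library, and macrophage markers summed to 21.0 CPM in the Fbn1 C1039G/+ and 42.7 CPM in the WT Prox1-positive cells with none of 6 at 0. Interferon genes had 3 of 16 higher and 0 lower by this rule, led by Ifi44 at 60.3 CPM in the Fbn1 C1039G/+ and 24.0 CPM in the WT Prox1-positive cells (ratio 2.52, 1.72 to 3.79), with 26.9 and 5.97 CPM in the Fbn1 C1039G/+ and WT interstitial cells. Clotting genes had 5 of 13 higher and 0 lower by this rule, among them Anxa2 (annexin A2, which binds plasminogen activator), with 1320.2 CPM in the Fbn1 C1039G/+ and 722 CPM in the WT Prox1-positive cells (ratio 1.83, 1.70 to 1.96), which lost its call in male cells (log2 0.41). In the Prox1-zero cells 3 of 17 interferon genes and 4 of 12 clotting genes were higher, and 0 of either list lower by this rule. Vasoactive genes had 5 of 17 higher and 1 lower there, and 6 of 19 higher and 3 lower in the Prox1-positive cells. Nts had a ratio of 1.62 (1.51 to 1.73), but its UMIs lay mostly in few cells, and the call was lost under 4 of 13 alternatives (thinned cells, interstitial rule genes under 0.3%, without the 5 deepest cells and female cells), with log2 ratios of 0.11 to 1.95. Edn1 (endothelin 1) had 2.35 (1.64 to 3.46), lost its call with thinned cells and was lower in female cells alone (log2 -1.12). Matrix genes had 5 of 31 higher and 2 lower, and Col18a1 stood at 263 CPM in the Fbn1 C1039G/+ and 166 CPM in the WT Prox1-positive cells (ratio 1.59, 1.37 to 1.86), a call lost with at least 3 Prox1 UMIs required (log2 0.34). In the Prox1-zero cells 12 of 32 matrix genes were higher and 4 lower.

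The 8 largest and 8 smallest ratios included genes that rested on few cells. At the high end, Nppb (brain natriuretic peptide, 21.7 CPM in the Fbn1 C1039G/+ and 0.749 CPM in the WT cells) and Xirp2 (40.3 CPM in the Fbn1 C1039G/+ and 2.25 CPM in the WT cells) had 81.0% and 94.9% of their Fbn1 C1039G/+ UMIs in 5 cells, and Slc26a7, Padi4, Tesc, Acta2, Wnt7a and Nrtn followed. At the low end, Kit, a receptor tyrosine kinase gene, had a UMI in 4.86% of Fbn1 C1039G/+ and 23.5% of WT cells, with 3.1 CPM in the Fbn1 C1039G/+ and 24.0 CPM in the WT cells (ratio 0.129, 0.0543 to 0.277). Fabp4 (4.48 CPM in the Fbn1 C1039G/+ and 59.9 CPM in the WT cells), Cxcl9 (0 in the Fbn1 C1039G/+ and 24.7 CPM in the WT cells), H2-Aa, Cd52, H2-Eb1, Lyz2 and Lpl were the others, and Cxcl9 was seen in 2.94% of WT cells. Against a floor of 3 counts in the Fbn1 C1039G/+ cells, Cxcl9 was at least 23.9-fold lower in them.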

How the data were processed

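Cells of dissociated mitral valves were captured with 10x Chromium Single Cell 3′ v3.1 chemistry, per the labels' protocols. The authors deposited raw UMI counts per gene and barcode for barcodes already selected, aligned to mm10. The submitters' processing notes name Cell Ranger 3.1.0 and the file headers 5.0.1. Free RNA was not subtracted, and reads of the 2 Fbn1 alleles are not separated.

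Members, gene lists and tests were chosen with earlier results of these data known. Sums of UMI counts per class and library were tested with edgeR 4.0.16 (R 4.3.3; quasi-likelihood, TMM factors, library as a block, mean of at least 10 CPM, Benjamini-Hochberg adjustment). Genotype was compared within the Prox1-positive cells as CPM with exact conditional binomial intervals at 95% (SciPy 1.17.1) for genes of at least 20 CPM in either library and 30 UMIs over both, and log2 values carry a pseudocount of 1 CPM. Intervals cover counting error only, and whether the libraries' mice were processed on separate days is not given in the sources used here. The library numbers pair nothing beyond each library's own classes, which share 1 capture but need not hold its mice in equal parts. Female cells were 48.6% of the Fbn1 C1039G/+ Prox1-positive and 61.0% of the Prox1-zero cells, and male cells 40.3% and 28.8%. In the WT library female cells were 52.9% and 51.6% and male cells 39.7% and 36.3%. The class comparison was not run within a sex. Clusters were built with scanpy 1.11.5 without the rule genes. The computation of the class and genotype comparisons was tried on simulated sums. The genotype sums were drawn with the same counting error that the intervals assume. UMIs gathered in few cells were not simulated, so this says nothing about the calls made here.

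Scrublet's automatic threshold marked 1 Fbn1 C1039G/+ barcode (0.0106%) and 238 WT barcodes (2.59%) and was not used. Doublets were kept, and the barcodes with the highest scores, 752 in the Fbn1 C1039G/+ and 696 in the WT library, among them 5 Fbn1 C1039G/+ and 4 WT Prox1-positive cells, were left out as an alternative. Named genes were the 12 largest and 12 smallest ratios of the class comparison, the 8 largest and 8 smallest of the genotype comparison, up to 4 of each list with the largest ratios, the markers and 5 leading genes per cluster, without mitochondrial, ribosomal, hemoglobin and sex-linked genes. Other list members named were chosen after their values were seen. Other normalization (DESeq2 1.42.0), filters, thresholds, depths and left-out cells were tried as alternatives. Gene positions are those of a GENCODE annotation of GRCm38, matched by Ensembl ID, and promoter stretches are those of RefSeq, GRCm38.p6. Some genes that these rules name are not reported here.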

Additional observations from a re-analysis of the deposited data

Results flagged for a closer look

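Several genes moved in opposite directions in groups under the same contrast, and the difference between the groups was not tested for any of them. Of Prox1-positive over Prox1-zero cells, the cycling gene Cdk1 had a log2 ratio of -0.73 in the Fbn1 C1039G/+ and 1.31 in the WT library, the natriuretic peptide clearance receptor gene Npr3 -1.45 in the Fbn1 C1039G/+ and 0.99 in the WT library, and the endothelial transcription factor gene Sox17 1.18 in the Fbn1 C1039G/+ and -2.76 in the WT library. Of Fbn1 C1039G/+ over WT cells, Sox17 had a log2 ratio of 1.90 in the Prox1-positive and -2.03 in the Prox1-zero cells, and 5 cells held 89.1% of its UMIs in the Fbn1 C1039G/+ and 81.2% in the WT Prox1-positive cells.

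Cd36 had a genotype log2 ratio of -1.72 in the Prox1-positive and 1.54 in the Prox1-zero cells, Lpl -1.94 in the Prox1-positive and 0.76 in the Prox1-zero cells, and Fabp4 -3.47 in the Prox1-positive and 1.11 in the Prox1-zero cells. Npr3 had -1.34 in the Prox1-positive and 1.09 in the Prox1-zero cells, the leukocyte adhesion gene Icam1 -0.78 in the Prox1-positive and 0.85 in the Prox1-zero cells, and the lipoprotein receptor gene Lrp1 1.61 in the Prox1-positive and -1.29 in the Prox1-zero cells. Of these directions in the Prox1-positive cells, Icam1 turned to 2.08 with interstitial rule genes under 0.3% and to 0.0704 in male cells, Cd36 to 1.96 and Npr3 to 0.37 with interstitial rule genes under 0.3%, so they are not stable.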

How the results depend on the processing

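The class comparison gave 330 higher and 431 lower genes. Without the filter on low counts it gave 673 higher and 772 lower, with DESeq2 113 and 165, against Prox1-zero cells of like depth 636 and 787, and with all cells thinned and the rule applied again 187 higher and 280 lower. Without the library as a block it gave 222 higher and 303 lower. The Prox1-zero cells of like depth had at least the median depth of the Prox1-positive cells of their library. They numbered only 22 in the Fbn1 C1039G/+ and 20 in the WT library. Genes at least 1.5-fold apart in both libraries were 368 higher and 381 lower, and from 1 library alone 703 to 885 higher and 584 to 898 lower. Of 1218 values of 91 named genes in the class comparison, 1099 kept direction and call, 98 lost the call, 21 gained it and 0 changed direction.

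The genotype comparison gave 338 higher and 216 lower genes, 524 and 390 without a filter on level, and 158 and 89 at 50 CPM or more. The lower genes numbered 132 with thinned cells and 348 with interstitial rule genes under 0.3% of UMIs. Scaling by the median ratio moved the median log2 ratio to 0 and the counts to 284 higher and 260 lower. The share difference was 29.0 points in male cells. Of 998 values of 84 named genes, 788 stayed within the counting interval, 194 moved beyond it and 16 changed direction. With interstitial rule genes under 0.3% the log2 ratio became 1.96 for Cd36, 0.45 for Cd74, 1.14 for Col4a4, 1.23 for H2-Ab1, 2.08 for Icam1 and 0.37 for Npr3. In male cells it became -0.15 for Cald1, -0.0386 for Fbln2, -0.0758 for Hspa1a, 0.0704 for Icam1, -0.14 for Itgb4, -0.0811 for Pcna and -0.15 for Thbs1, in female cells 0.14 for Apcdd1 and -1.12 for Edn1, and with thinned cells 0.11 for Cxcl12. The cause was not tested. In the class comparison the thinning of cells as chosen and the removal of the 5 deepest cells, and for the share the cells of each sex, were added after seeing the data. No paired analysis was possible for genotype because each genotype has 1 library.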

Other observations

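Pdgfra, a growth factor receptor gene usually taken as a mesenchymal marker, was higher in the Prox1-positive cells, and it was chosen after its values were seen. It stood at 529.8 CPM in the Fbn1 C1039G/+ and 654 CPM in the WT Prox1-positive cells, against 84.1 and 40.6 CPM in the Fbn1 C1039G/+ and WT Prox1-zero cells (log2 3.26 ± 0.29 SE, edgeR adjusted p = 0.000788). Interstitial cells held 79.6 CPM in the Fbn1 C1039G/+ and 109.9 CPM in the WT library, less than the Prox1-positive cells of either library. Pdgfra was also among the 10 leading genes of cluster 4.

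Lrg1, a secreted glycoprotein gene of venules, was higher in the Prox1-positive cells, with 195 CPM in the Fbn1 C1039G/+ and 289.9 CPM in the WT cells, against 48.0 and 28.9 CPM in the Fbn1 C1039G/+ and WT Prox1-zero cells (log2 2.62 ± 0.28 SE, edgeR adjusted p = 0.00129). The cyclin-dependent kinase inhibitor gene Cdkn1a was lower, with 346 CPM in the Fbn1 C1039G/+ and 187 CPM in the WT Prox1-positive cells, against 645 and 651 CPM in the Fbn1 C1039G/+ and WT Prox1-zero cells (log2 -1.35, edgeR adjusted p = 0.00607), and its relative Cdkn1c was higher (log2 1.16, edgeR adjusted p = 0.0124).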
